A study of Mus musculus with 13 samples.

Results

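Transcripts of 7 genes encoding transcription factors tied to T cell exhaustion and anergy were followed in T cells from mouse tumors. The genes were Tox, Tox2, Nr4a2, Nr4a3, Egr2, Egr3 and Nfatc1, taken by symbol from the 12963 genes of the deposited table, and all 7 were among the 12667 genes tested. T cells had been sorted from B16-F10 melanomas, a mouse melanoma line implanted under the skin, and their RNA sequenced in bulk. All animals were Foxp3-EGFP-DTR, an allele that puts EGFP and the human receptor for diphtheria toxin (DTx) under control of Foxp3, the gene that defines regulatory T (Treg) cells. The toxin ablates Treg cells, and saline (PBS) was the control. The 5 groups were 3 Treg libraries made after PBS (Treg PBS), 2 and 3 libraries of conventional (Tconv) CD4+ T cells from PBS-treated (CD4 PBS) and DTx-treated mice (CD4 DTx), and 2 and 3 libraries of CD8+ T cells, which the labels also call Tconv cells, from the same treatments (CD8 PBS and CD8 DTx). Treg cells were analysed here only from mice given PBS. The age of the animals and whether a library pooled animals are not given in the labels, so p-values measure the spread between these libraries.

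NFATc1 is carried to the nucleus when a calcium signal from the T cell receptor activates the phosphatase calcineurin. Working with AP-1 it drives cytokine genes, whereas working largely without AP-1 it induces genes of unresponsiveness, among them the EGR2 and EGR3 factors of anergy and the NR4A and TOX factors that maintain exhaustion in chronically stimulated T cells. NR4A and EGR genes are also immediate early genes, which are transcribed within minutes of a stimulus and decay quickly, and NR4A factors have a separate role in Treg cells, where they help sustain Foxp3.

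Values are normalized reads, the deposited scale, on which 1 read was worth between 0.661 and 1.37 units in the 13 libraries. Libraries held between 15947556 and 34140486 reads, and 3 reads, taken as the detection floor, came to between 1.98 and 4.10 normalized reads. The labels held against lineage transcripts: Treg libraries held 1178 to 1896 normalized reads of Foxp3 and the other 10 libraries 0 to 12.1, and Cd4 was at 17780 to 32504 in the CD4 Tconv libraries and at 0 to 413 in the CD8 libraries. The PBS libraries numbered 3 stood apart. An immediate early index, the mean log2(value + 1) of 22 immediate early genes that leave out the NR4A and EGR families, was between 11.9 and 12 in these 3 libraries and between 9.12 and 10.3 in the other 10. The library numbered 3 of each group was also the only one with Y-linked transcripts, so sex and that number cannot be told apart, but the DTx libraries numbered 3 did not have the high index. Results were therefore also computed without the 3 PBS libraries numbered 3, an alternative chosen after seeing the data. Among lists of other cell types, the sum of 6 NK cell markers was 1288 to 9634 in CD8 PBS and 50537 to 123768 in CD8 DTx. In CD4 cells it was 367 to 909 after PBS against 4227 to 9438 after DTx. Of the 6, only Gzma and Klrc1 had an adjusted p under 0.05 (limma) after DTx, both higher in both cell types. The median log2 fold change of the 6 was 1.25 in CD4 and 0.73 in CD8 cells. Erythroid markers, 5 in all, summed to 1663 to 10981 in CD4 PBS libraries against 0 to 1773 after DTx, and in CD8 cells to 2866 to 11503 against 32.3 to 1357. The sum of 5 melanocyte markers was highest in Treg PBS, at 782 to 1229, with 435 to 498 in CD4 PBS. Their part in the results was not tested.

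The 7 genes followed different orders across the groups rather than one. Tox, Tox2 and Nr4a3 were highest on average in Treg PBS, Nr4a2 in CD8 DTx, and Egr2, Egr3 and Nfatc1 in CD4 DTx. In the comparison of Treg PBS with CD4 PBS, 2 of 7 passed an adjusted p of 0.05 (limma, Benjamini-Hochberg over all genes), both higher, where 20.4% of all genes passed and 13.5% were higher. The same number passed between Treg PBS and CD8 PBS, where 18.7% of all genes passed and 11.9% were higher. After DTx 1 of 7 passed in CD4 Tconv cells, in which it fell, and 1 of 7 in CD8 T cells, in which it rose, against 12.7% of all genes in CD4, 4.08% lower, and 10.9% in CD8 cells, 7.40% higher. These shares lay near the background, so the counts themselves are no result about the 7 genes. The comparisons of Treg PBS and of CD4 DTx with CD4 PBS share the CD4 PBS libraries, and those of Treg PBS and of CD8 DTx with CD8 PBS share the CD8 PBS libraries. Bulk RNA cannot tell fewer cells expressing a gene from less RNA per cell.

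**Figure D1:**
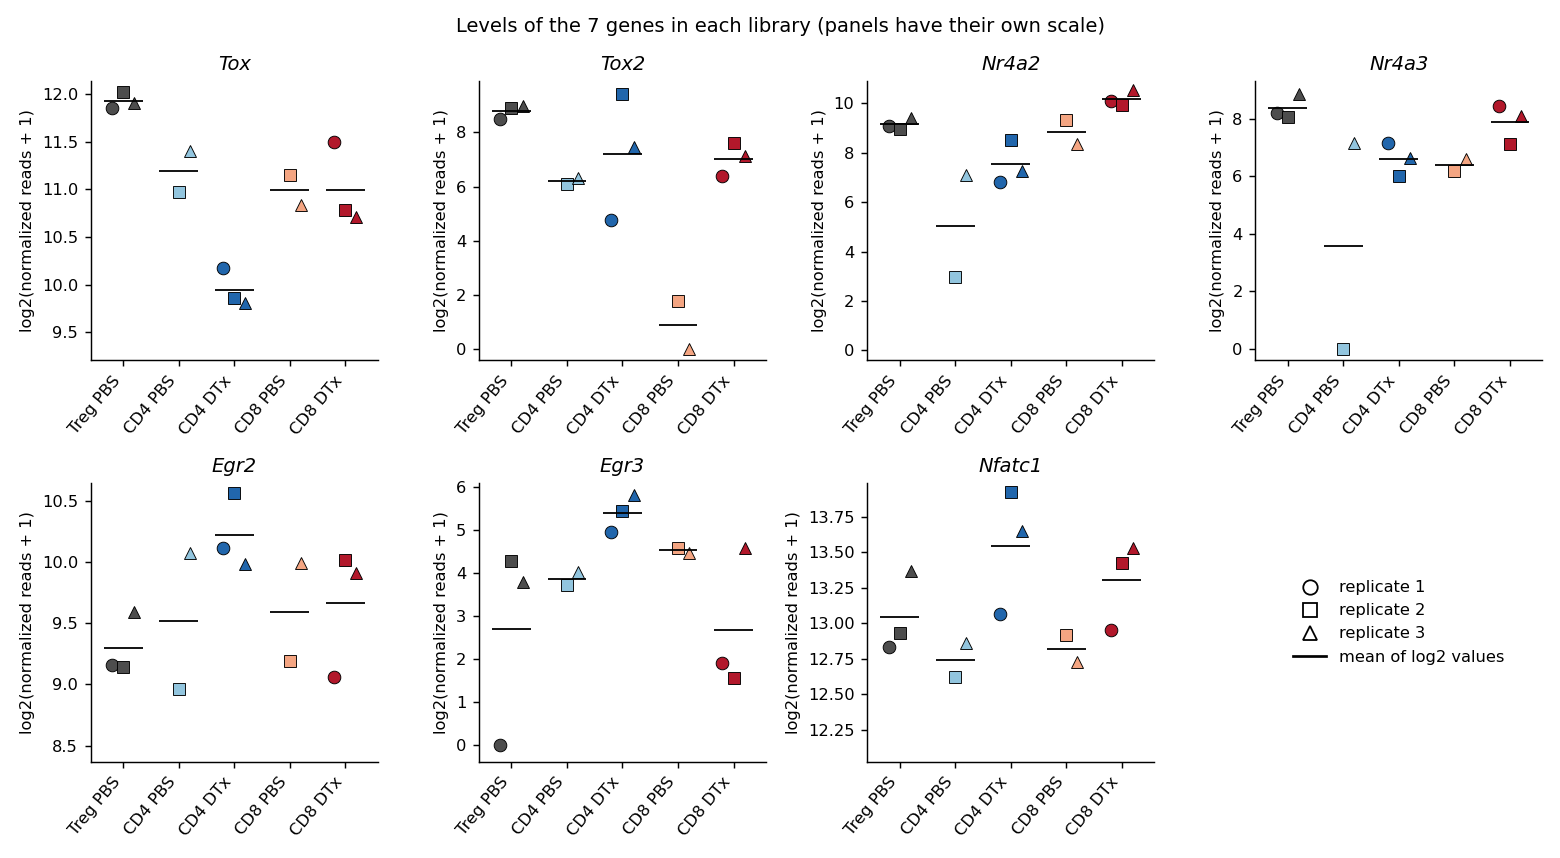
Each panel shows 1 gene, with log2(normalized reads + 1) on the vertical axis and the 5 groups on the horizontal axis; each point is a library, its shape gives the replicate number and the bar is the mean. Tox was lowest in all 3 CD4 DTx libraries, Tox2 was near 0 in both CD8 PBS libraries, and Nr4a2 and Nr4a3 dropped in a single library, CD4 PBS replicate 2.

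Tox, which encodes the nuclear factor that fixes the exhausted program in chronically stimulated CD8 T cells, was highest in Treg cells and lowest in CD4 Tconv cells after Treg ablation. Treg PBS libraries held 3693, 4176 and 3852 normalized reads of Tox, those of CD4 PBS held 2016 and 2716, and those of CD4 DTx 1159, 926 and 893. CD8 libraries held 2280 and 1834 after PBS and 2892, 1764 and 1676 after DTx. Group means with SD were 3907 ± 246 (Treg PBS, n = 3), 2366 ± 495 (CD4 PBS, n = 2), 993 ± 145 (CD4 DTx, n = 3), 2057 ± 316 (CD8 PBS, n = 2) and 2111 ± 678 (CD8 DTx, n = 3). The Treg libraries lay above and the CD4 DTx libraries below all others, whereas CD4 PBS, CD8 PBS and CD8 DTx overlapped and differed by less than the larger of their standard deviations. After DTx Tox fell 2.37-fold in CD4 Tconv cells, the single gene of the 7 to pass there in the limma fit of all libraries, with a log2 difference of -1.25 (SE 0.25) and an adjusted p of 0.00672 in limma. In CD8 cells the difference was 0.00 with a 95% interval of -0.55 to 0.55. Its difference between Treg PBS and CD4 PBS, 0.74 (95% interval 0.19 to 1.29), had an adjusted p of 0.0590 in limma although the libraries did not overlap, as was the case for 56.7% of all genes. It passed under 2 of 17 alternatives, DESeq2 (0.72, adjusted p = 0.0402) and a limma fit of only the groups compared (0.74, adjusted p = 0.0476).

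Set against Treg cells, Tox was 3.95-fold lower in CD4 DTx, a log2 difference of -1.98 (SE 0.23) with an adjusted p of 0.000373 in limma, and the call was kept under all 18 alternatives. It was lower in CD8 DTx by -0.93 (SE 0.23, limma, adjusted p = 0.0236), kept under 9 of 18. In these comparisons, where Tox was the 1 gene of 7 to pass, 7.91% and 8.60% of all genes passed, with 4.55% and 4.71% lower. The CD8 DTx call was lost on leaving out Treg PBS replicate 1, 2 or 3 or CD8 DTx replicate 2 or 3, with differences of -0.97, -0.88, -0.94, -0.83 and -0.79. Tox was also higher in Treg PBS than in CD8 PBS (log2 fold change 0.93, limma, adjusted p = 0.0237), which was lost without Treg PBS replicate 2 (0.88), CD8 PBS replicate 2 (1.09) or CD8 PBS replicate 3 (0.77). Between the ablated groups Tox was lower in CD4 DTx than in CD8 DTx by -1.05 (limma, adjusted p = 0.0396), the 1 gene of 7 to pass where 1.64% of all genes did, 0.892% lower. The same-numbered libraries of these 2 groups deviated together, and with the replicate number as a block Tox had an adjusted p of 0.0184 while the number of all genes that passed went from 208 to 414. This call was lost without CD4 DTx replicate 2 (-1.01), CD4 DTx replicate 3 (-0.98), CD8 DTx replicate 1 (-0.80) or CD8 DTx replicate 2 (-1.16).

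The fall of Tox in CD4 Tconv cells rested in part on CD4 PBS replicate 3. Without that library it was -1.03 (limma, adjusted p = 0.104), and without all 3 PBS libraries numbered 3 it had an adjusted p of 0.179. The direction stayed the same in all 17 alternatives, between -1.46 and -1.03. Transcripts of CD8 cells differed between libraries as well: the sum of Cd8a and Cd8b1 was 560 and 615 in the CD4 PBS libraries. It was 370, 2352 and 3662 in those of CD4 DTx, with 65682 to 125989 in CD8 DTx. Foxp3 was at 0 in both CD4 PBS libraries and at 0 to 1.87 in CD4 DTx. The part of other cells in the Tox difference was not tested.

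Tox2, a close relative of Tox that also serves follicular helper T cells, was the gene that rose in CD8 T cells. It was at 2 reads (2.43 normalized reads) and 0 reads in CD8 PBS and at 82.2, 193 and 137 normalized reads in CD8 DTx. Both PBS libraries were at or under the floor and all DTx libraries far above it. Measured against the highest floor of a CD8 PBS library, the mean after DTx was higher by at least 34.4-fold (fitted log2 fold change 6.14, SE 1.05, limma, adjusted p = 0.00375). The call was kept under 15 of 17 alternatives and lost without CD8 PBS replicate 3 (5.25, adjusted p = 0.0738) and without the 3 PBS libraries numbered 3 (5.25, adjusted p = 0.163), where a single PBS library was left. Of 3 CD4 lineage markers, 2 rose in CD8 DTx as well, Zbtb7b and Cd40lg, and the sum of the list was 81.3 to 101 in CD8 PBS, 720 to 1585 in CD8 DTx and 29779 to 39380 in CD4 DTx. As a share of the CD4 DTx mean, the CD8 DTx libraries held 1.56%, 0% and 0.152% of Cd4, between 10% and 32.4% of Zbtb7b and 28.0%, 65.6% and 46.8% of Tox2. The part of CD4 cells in the Tox2 difference was not tested.

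In the other groups Treg PBS libraries held 362, 470 and 498 normalized reads of Tox2, CD4 PBS libraries 67.0 and 79.3, and CD4 DTx libraries 26.2, 682 and 173. The CD4 DTx libraries thus lay on both sides of CD4 PBS and of Treg PBS. Neither the difference of CD4 DTx from CD4 PBS (log2 fold change 1.0, 95% interval -1.29 to 3.29) nor that of Treg PBS from CD4 PBS (2.58, 95% interval 0.29 to 4.86, limma, adjusted p = 0.103) passed in the limma fit of all libraries. The latter passed under 3 of 17 alternatives, among them DESeq2 (2.60, adjusted p = 0.0275) and a limma fit of only the groups compared (2.58, adjusted p = 0.0116). The Treg PBS mean of Tox2 was at least 111-fold above the highest floor of a CD8 PBS library. The fitted log2 fold change from CD8 PBS was 7.89 (95% interval 5.61 to 10.18, limma, adjusted p = 0.000378). Without the 3 PBS libraries numbered 3, which left 1 CD8 PBS library, it was 6.91 with an adjusted p of 0.0502. The CD4 PBS mean of Tox2 was at least 18.3-fold above that floor. Its fitted log2 fold change from CD8 PBS was 5.32 (95% interval 2.81 to 7.82, limma, adjusted p = 0.0518). None of the 7 genes passed in that comparison, against 1.08% of all genes. An unadjusted p under 0.05 (limma) was reached by 2, Tox2 and Nr4a2, as for 6.53% of all genes. There edgeR called none of the 7 and DESeq2 called Tox2 (adjusted p = 0.00374).

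Nr4a2 and Nr4a3 encode orphan nuclear receptors that bind DNA without a known ligand and act downstream of NFAT. They were the genes of the 7 that passed between Treg PBS and CD4 PBS in the limma fit of all libraries, whereas DESeq2 called Nr4a2, Tox and Tox2 there. Their promoters, with that of their family partner Nr4a1, are shown because the 3 genes behaved differently across these libraries. The sequences are RefSeq windows on GRCm38.p6, the 250 bases before each annotated start on the strand of the gene, and capitals mark each copy of TGACG, the core of the cAMP response element, on either strand. Nr4a2 is on the minus strand (chr2:57124004-57124253), Nr4a3 on the plus strand (chr4:48045055-48045304) and Nr4a1 on the plus strand (chr15:101266596-101266845).
Nr4a2: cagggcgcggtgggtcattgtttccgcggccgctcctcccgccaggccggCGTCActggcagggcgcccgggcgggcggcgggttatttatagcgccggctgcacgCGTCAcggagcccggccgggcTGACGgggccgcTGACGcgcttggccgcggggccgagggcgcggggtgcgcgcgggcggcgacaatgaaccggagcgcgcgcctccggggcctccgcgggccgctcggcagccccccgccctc
Nr4a3: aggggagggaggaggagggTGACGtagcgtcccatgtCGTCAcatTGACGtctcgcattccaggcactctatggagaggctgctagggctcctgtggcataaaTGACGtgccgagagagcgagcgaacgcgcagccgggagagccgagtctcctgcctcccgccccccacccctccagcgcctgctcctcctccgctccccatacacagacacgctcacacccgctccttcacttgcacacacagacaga
Nr4a1: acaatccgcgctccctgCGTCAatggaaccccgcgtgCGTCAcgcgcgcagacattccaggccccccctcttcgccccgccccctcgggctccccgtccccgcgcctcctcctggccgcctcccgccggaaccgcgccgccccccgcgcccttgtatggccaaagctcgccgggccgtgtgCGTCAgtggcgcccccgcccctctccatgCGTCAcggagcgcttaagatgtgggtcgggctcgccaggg
Each window held 4 copies of the core. At least 1 copy is found in 20.8% of all 32851 RefSeq windows, which run from 250 bases before to 50 bases after a start. The full element TGACGTCA (1.79% of windows), the AP-1 site TGANTCA (7.81%), and the NR4A element AAAGGTCA (1.51%) were in none of the 3 windows. An EGR site, GCGNGGGCG (5.55%), stood in the Nr4a2 and Nr4a1 windows, and the NFAT core GGAAA (61.3%) in the Nr4a2 window. Of the 5 Egr2 windows, which partly overlap, 4 held a CArG box, the site of serum response factor, found in 1.63% of windows. No window for Tox, Egr3 or Nfatc1 was used.

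Nr4a2 had 544, 505 and 669.8 normalized reads in the Treg libraries, only 6.83 and 138 in those of CD4 PBS, and 112, 362 and 153 in those of CD4 DTx. CD8 T cells had 639 and 325 after PBS against 1107, 973 and 1475 after DTx. Treg libraries all lay above both CD4 PBS libraries, and all CD8 DTx libraries above every other library. Nr4a2 was 17.3-fold higher in Treg PBS than in CD4 PBS (log2 4.11, SE 0.90, adjusted p = 0.00732 in limma), kept under 15 of 17 alternatives. That fold is taken from mean log2 values, and the plain group means were 573 and 72.4 normalized reads. A limma fit of only the groups compared lost the calls of Nr4a2 and Nr4a3 (adjusted p = 0.0834 and 0.173). CD4 PBS replicate 2 carried only 5 reads of Nr4a2, and without it the difference was 2.03 (limma, adjusted p = 0.0591). With all libraries neither difference after DTx passed, 2.49 in CD4 Tconv cells (95% interval 0.52 to 4.45, limma, adjusted p = 0.0975) and 1.35 in CD8 T cells (95% interval -0.61 to 3.32), although the CD8 libraries did not overlap, as for 43.6% of all genes. Nr4a2 was lower in all CD4 DTx than in all CD8 DTx libraries, as for 13.9% of all genes in either direction (log2 fold change -2.66, unadjusted p = 0.00634, adjusted p = 0.159 in limma and 0.0135 in DESeq2).

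Nr4a3 showed the same contrast on fewer reads. The Treg libraries held 291, 264 and 464 normalized reads, the CD4 PBS libraries 0 and 141, and the CD4 DTx libraries 140.3, 63.4 and 97.4. There were 71.7 and 94.6 in CD8 T cells after PBS and 345, 138 and 273 after DTx. The Treg libraries were above all libraries but those of CD8 DTx, with which they overlapped. The call between Treg PBS and CD4 PBS, at a log2 difference of 4.79 (SE 1.43) and an adjusted p of 0.0336 in limma, was kept under 9 of 17 alternatives. Leaving out Treg PBS replicate 1, 2 or 3 ended the call at 4.88, 4.95 and 4.54. It was 1.21 (limma, adjusted p = 0.304) without CD4 PBS replicate 2, the library with no read of Nr4a3, and edgeR gave 2.22 (adjusted p = 0.208) and DESeq2 2.25 (adjusted p = 0.115) on all libraries. Without CD4 PBS replicate 3 instead, both genes were higher in CD4 DTx than in the remaining CD4 PBS library, Nr4a2 by 4.56 (limma, adjusted p = 0.00234) and Nr4a3 by 6.59 (limma, adjusted p = 0.000854). Likewise, both passed as lower in CD4 PBS than in CD8 PBS without that library (-5.87 for Nr4a2 and -6.38 for Nr4a3, limma, adjusted p = 0.00271 and 0.00339) but not with it (-3.79 and -2.80). With all libraries Nr4a3 did not pass after DTx in CD4 (3.01, 95% interval -0.10 to 6.13) or CD8 cells (1.5, 95% interval -1.61 to 4.62).

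**Figure D2:**
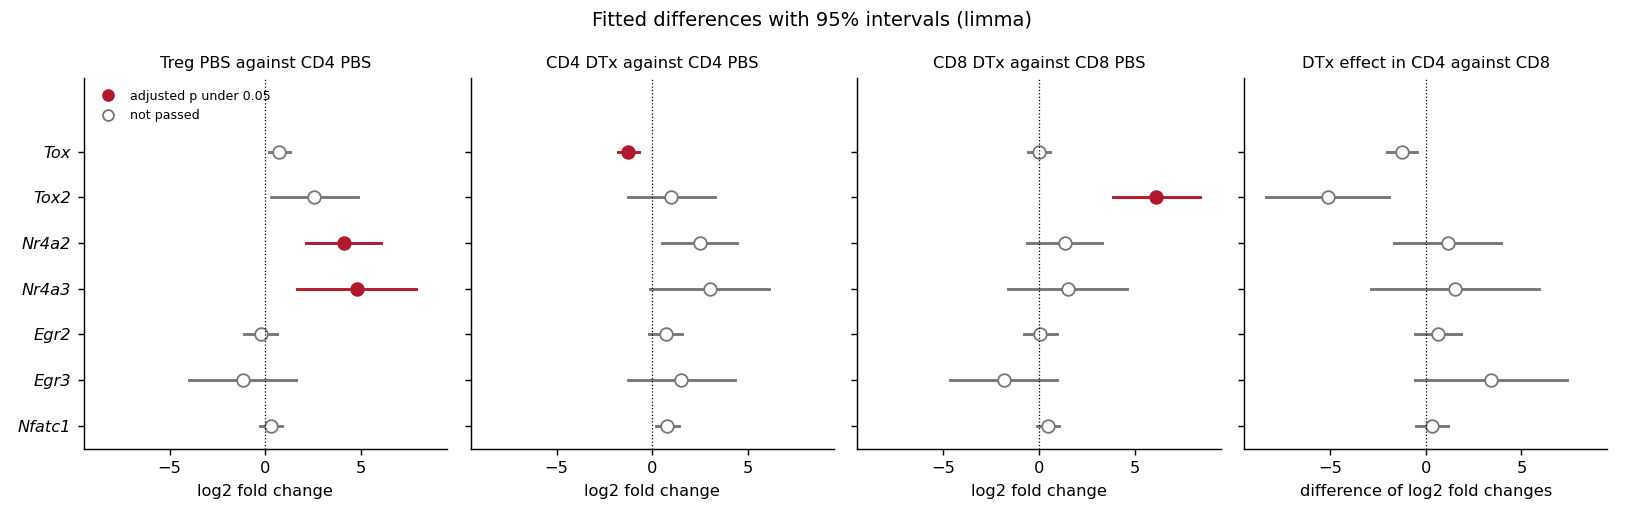
Points give the fitted log2 fold change of each gene and lines its 95% interval (limma) in 3 comparisons and, on the right, the difference of the DTx effect between CD4 and CD8 cells; filled points passed an adjusted p of 0.05. Nr4a2 and Nr4a3 passed for Treg PBS, Tox after DTx in CD4 and Tox2 after DTx in CD8 cells, and none passed in the last panel.

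Egr2 and Egr3 encode zinc finger factors that are induced by NFAT in anergic T cells and raise ubiquitin ligases and diacylglycerol kinases. Neither passed in any of the 9 comparisons. For Egr2 the Treg libraries held 572, 565 and 769.9 normalized reads, CD4 PBS libraries 499 and 1079, and CD4 DTx libraries 1109, 1516 and 1014. CD8 libraries ran at 583 and 1016 after PBS and at 534, 1037 and 958 after DTx. All CD4 DTx libraries were above all Treg libraries (log2 fold change 0.92, 95% interval 0.15 to 1.70, limma, adjusted p = 0.147), as in 25.4% of all genes, but CD4 PBS replicate 3 reached into their range. The difference from CD4 PBS was 0.70 (95% interval -0.16 to 1.57) after DTx, and in CD8 cells it was 0.07 (95% interval -0.79 to 0.94).

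Egr3 was close to the floor, with at most 42 reads in a library. Treg libraries held 0, 18.4 and 12.9 normalized reads of it, CD4 PBS libraries 12.3 and 15.2, and CD4 DTx libraries 29.9, 42.9 and 55.3. CD8 libraries held 23.1 and 21.3 after PBS and 2.77, 1.93 and 22.9 after DTx. The CD4 DTx libraries were the highest 3 of the 13. At this depth its differences after DTx, 1.53 in CD4 (95% interval -1.28 to 4.34) and -1.85 in CD8 cells (95% interval -4.66 to 0.96), were not detectable, and only quantile normalization called a comparison, CD4 DTx against Treg PBS (3.66, limma, adjusted p = 0.0337).

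Nfatc1, the calcium-responsive factor upstream of the others, was expressed far above the floor in all libraries. Treg libraries held 7302, 7814 and 10561 normalized reads of Nfatc1, CD4 PBS libraries 6312 and 7455, and CD4 DTx libraries 8589, 15546 and 12836. CD8 libraries held 7757 and 6767 after PBS and 7939, 10988 and 11817 after DTx. Both DTx groups lay above their PBS groups with no overlap, as did 46.3% (CD4) and 43.6% (CD8) of all genes. The differences were 0.80 in CD4 (95% interval 0.21 to 1.39, limma, adjusted p = 0.0754) and 0.48 in CD8 cells (95% interval -0.11 to 1.07, limma, adjusted p = 0.281), neither of which passed in this fit, although the CD4 difference passed under 3 of 17 alternatives and the CD8 difference under 1. In CD4 cells DESeq2 did call the rise (0.84, adjusted p = 0.0184), edgeR did not, and limma called it without CD4 DTx replicate 1 (1.04, adjusted p = 0.0213). Treg PBS differed from CD4 PBS by 0.30 (95% interval -0.29 to 0.89).

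Of 8 family partners in the table (Tox4, Nr4a1, Egr1, Nab1, Nab2, Nfatc2, Nfatc3 and Nfat5), none passed between Treg PBS and CD4 PBS or after DTx in either cell type. Nfatc3, which is activated by calcineurin like Nfatc1, was higher than in Treg PBS in CD4 DTx (log2 fold change 1.6, limma, adjusted p = 0.00489) and in CD8 DTx (0.99, adjusted p = 0.0490). Tox4, a ubiquitous relative of Tox, ranged only from 3921 to 5108 normalized reads. Nr4a1 ranged from 571 to 9248 and Egr1 from 1033 to 10951, the highest 3 values of each being the PBS libraries numbered 3.

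Within each family, the members differed in how far the PBS libraries numbered 2 and 3 lay apart. From replicate 2 to replicate 3 of the PBS groups, Nr4a1 was 3.71-fold, 8.80-fold and 10.2-fold higher in Treg, CD4 and CD8 cells, and Egr1 was 3.63-fold, 4.41-fold and 4.49-fold higher. Egr2 was 1.36-fold, 2.16-fold and 1.74-fold higher between the same libraries. Nr4a2 did not follow in CD8 cells: its ratio was 1.33 in Treg, 20.2 in CD4 and 0.509 in CD8 cells. Egr3 had ratios of 0.703, 1.24 and 0.924, Nfatc1 of 1.35, 1.18 and 0.872, and Tox of 0.922, 1.35 and 0.804. As a description, Pearson's r with the immediate early index was taken over the 13 libraries with group means removed. Among family partners it was highest for Egr1 (0.98), Nr4a1 (0.87) and Nfatc3 (0.76). For the 7 genes it was 0.70 for Egr2, 0.55 for Nr4a3, 0.52 for Egr3, 0.49 for Nfatc1, 0.43 for Nr4a2, 0.02 for Tox2 and -0.09 for Tox. CD4 PBS replicate 2 held 5 reads of Nr4a2 and none of Nr4a3, and r was not recomputed without it. Libraries of one number also share the sex of the animals, and the 3 PBS libraries numbered 3 set most of the range. The part of this response in the differences between groups was not tested beyond the fits without those libraries.

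**Figure D3:**
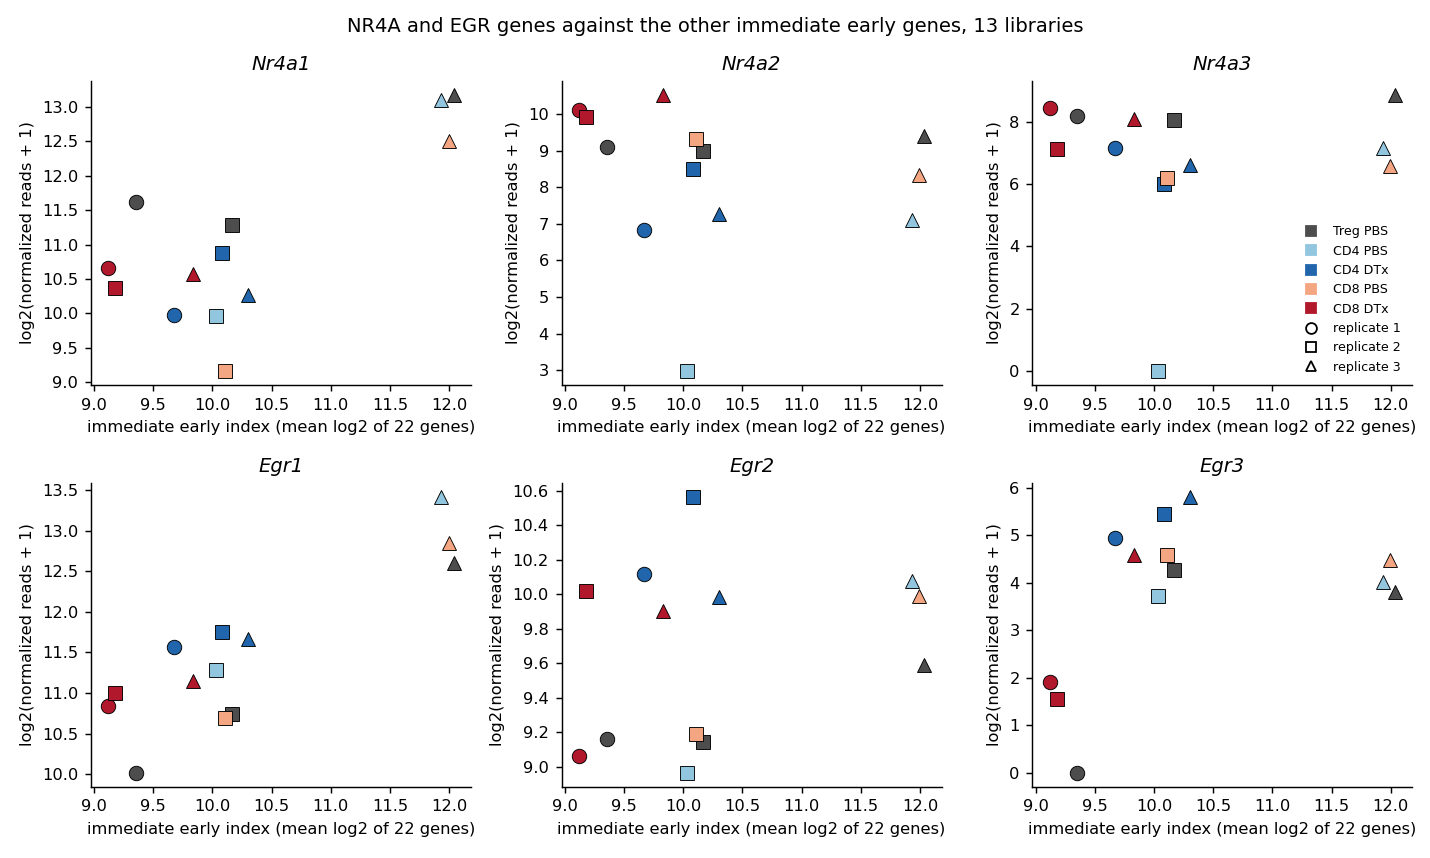
Each panel plots log2(normalized reads + 1) of 1 gene against the immediate early index of the library, with color for the group and shape for the replicate number. The 3 PBS libraries numbered 3, at an index of 11.9 to 12, are the highest for Nr4a1 and Egr1 but not for Nr4a2 or Egr2.

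Whether DTx acted differently on the 2 cell types was tested as the difference of the DTx effects in the same fit, in which 0.0474% of all genes passed. None of the 7 genes passed with limma, edgeR or DESeq2, and 2 had an unadjusted p under 0.05, as for 4.05% of all genes. For Tox the effects were -1.25 in CD4 and 0.00 in CD8 cells, a difference of -1.25 (95% interval -2.03 to -0.46, unadjusted p = 0.00456, limma adjusted p = 0.522). For Tox2 they were 1.0 and 6.14, a difference of -5.14 (95% interval -8.37 to -1.91, unadjusted p = 0.00465, limma adjusted p = 0.526). For the other 5 the intervals spanned 0.

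Across the 13 libraries the 7 genes did not move as a unit. Nr4a2 and Nr4a3 had a Pearson's r of log2 values of 0.85, the highest before group means were removed, and 0.81 after, but without CD4 PBS replicate 2 it was 0.46 and -0.35. Nfatc1 and Tox2 had an r of 0.52, and of 0.82 with group means removed, the highest on that scale, which stayed between 0.65 and 0.83 when CD4 PBS replicate 2, CD4 DTx replicate 1 or CD4 DTx replicate 2 was left out. Tox ran opposite to Egr2 at -0.70 and to Nfatc1 and Egr3 at -0.58 each, and with group means removed at -0.35, -0.49 and -0.13. By r over the 13 libraries the most alike gene was Cd27 for Tox (0.92), Exoc3l for Nr4a2 (0.90), Naf1 for Nr4a3 (0.94), Sun1 for Egr2 (0.83), Ipmk for Egr3 (0.88) and Mbd2 for Nfatc1 (0.96). Rgs16, a regulator of G protein signaling raised in exhausted cells, was the third most like Nr4a3 (0.92), after Naf1 and E2f3 (0.94). Its means were 2029 (Treg PBS), 55.8 (CD4 PBS), 773 (CD4 DTx), 618 (CD8 PBS) and 1849.7 (CD8 DTx) normalized reads. CD4 PBS replicate 2 held no read of Nr4a3, and these r values were not recomputed without that library. Tox and Cd27, a costimulatory receptor, were both lowest in CD4 DTx, where Cd27 had a mean of 2718 normalized reads against 6399 in CD4 PBS.

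**Figure D4:**
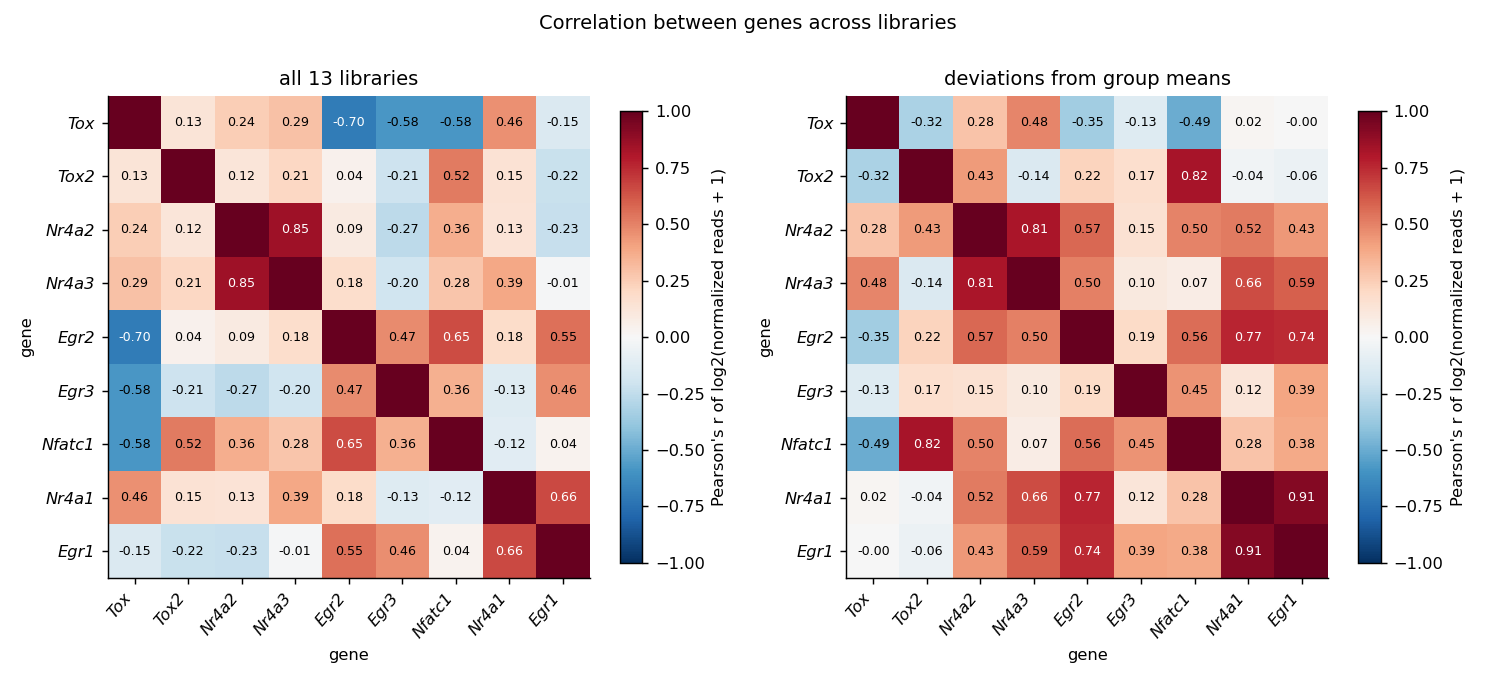
Cells give Pearson's r between genes over 13 libraries, on log2(normalized reads + 1) on the left and after removal of group means on the right. The pair Nr4a2 and Nr4a3 is at 0.85 and 0.81, and the pair Nfatc1 and Tox2 at 0.52 and 0.82.

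Genes known to act with these factors were counted in the same fits. Of 25 exhaustion genes other than the 7, 19 were higher in Treg PBS than in CD4 PBS and none lower (median log2 fold change 3.73, against 0.01 over all genes). After DTx, 18 rose in CD4 Tconv cells and 16 in CD8 T cells, with none lower (medians 2.84 and 2.19, against -0.04 and -0.03). Over all genes 13.5%, 8.64% and 7.40% were higher in the 3 comparisons. In CD4 cells these included the inhibitory receptor gene Havcr2 (log2 fold change 5.32), the ectonucleotidase Entpd1 (5.0), the chemokine Ccl4 (5.69) and Rgs16 (6.15), and in CD8 cells Havcr2 (4.17), Entpd1 (3.70), the receptor Tigit (3.55) and Ccl4 (3.47). Tox, the factor best known for that program, fell in the first and differed by 0.00 in the second. Of 14 stem-like genes, 6 fell in CD4 and 8 in CD8 cells and none rose, among them the migration receptor Ccr7 (-4.49 and -4.37) and the repressor Bach2 (-3.94 and -3.15), where 4.08% and 3.47% of all genes fell. Without the 3 PBS libraries numbered 3 the exhaustion counts were 17, 15 and 4 and the stem-like counts 6, 4 and 0 in the 3 comparisons, where 6.6%, 4.52% and 0.845% of all genes passed.

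Of the 20 anergy genes, several of them targets of Egr2 and Egr3, those that passed went both ways, and after DTx mostly up. Between Treg PBS and CD4 PBS 8 were higher and 4 lower, and after DTx 8 rose and 1 fell in CD4 and 7 rose and 1 fell in CD8 cells. Over all genes 20.4%, 12.7% and 10.9% passed in these comparisons, with 13.5%, 8.64% and 7.40% higher and 6.91%, 4.08% and 3.47% lower. Socs2, a suppressor of cytokine signaling, rose by 4.03 in CD4 and 4.42 in CD8 cells, the inhibitory receptor gene Lag3 by 3.37 in CD8 cells, and Rnf128, the anergy ubiquitin ligase GRAIL, by 3.91 in CD8 cells. Of 11 cytokine and effector genes driven by NFAT with AP-1, 4 rose and none fell in each cell type after DTx, including Ifng (2.06 and 2.62) and Fasl (2.23 and 3.50), while 2, Il21 and Cd40lg (-3.57), were lower in Treg cells than in their CD4 PBS counterparts. Of 25 genes of calcium and calcineurin signaling, 4 rose and 3 fell in CD4 and 1 rose and 1 fell in CD8 cells, a share in CD8 cells not above that of all genes. In CD4 cells the calcineurin regulator Rcan3 fell (-1.77), and the calcium channel gene Itpr1 (1.58), the calcineurin subunit Ppp3cc (1.13) and calmodulin Calm3 (1.06) rose. Of 24 immediate early genes, 2 rose and 1 fell in CD4, and 4 fell in CD8 cells, among them Jun (-4.75) and Junb (-2.67). The share in CD4 cells was near that of all genes. Without the 3 PBS libraries numbered 3, the anergy genes that passed in CD4 cells were 6 higher and 1 lower, and in CD8 cells 3 higher and 1 lower. The NFAT targets were then 3 and 1, all higher, the calcium genes 1 and 0, and the immediate early genes 3 and 0.

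**Figure D5:**
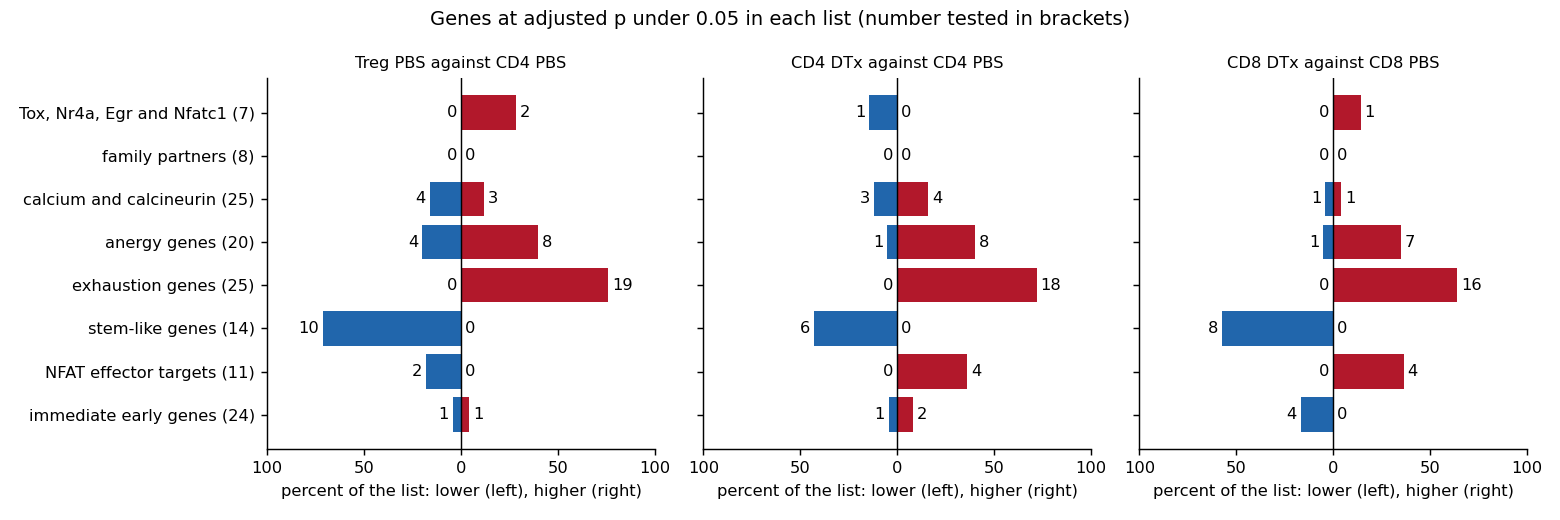
Bars give the percent of each list that passed an adjusted p of 0.05 (limma), lower to the left and higher to the right, with the number of genes at the end of the bar and the number tested in brackets. The exhaustion list reached 19, 18 and 16 of 25 genes higher in the 3 comparisons, and the 7 factors 2, 0 and 1. Over all genes 13.5%, 8.64% and 7.40% were higher.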

How the data were processed

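RNA of sorted tumor-infiltrating T cells was sequenced in 13 libraries of 5 groups. The deposited values, which the authors call FPM, are a normalized signal per gene. Per the labels and methods, the authors trimmed reads with cutadapt, checked them with FastQC, aligned them with hisat2 to the mouse genome NCBIM37 and kept reads that mapped uniquely. The methods describe FPM as scaled to the library total with a correction for intergenic reads, but the deposited columns have unequal sums far above those of per-million values and were treated as reads divided by 1 factor per library. The authors ran DESeq2 for their own comparisons, which were not used here. The read counter, strand setting and gene filter are not given in the sources used here, so overlapping and antisense genes cannot be told apart. The labels and the methods name different library kits.

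Each deposited signal value was a whole multiple of what 1 read is worth in its library (100% of values within 0.01 of a read), so whole reads were recovered, between 15947556 and 34140486 per library. Reads without molecular identifiers are not independent molecules, and the 3-read floor covers counting error only. Genes that reached 10 normalized reads in 2 or more libraries were tested on log2(value + 1) with limma 3.58.1 (R 4.3.3), with 1 mean per group, a mean trend and Benjamini-Hochberg adjustment over 12667 genes. Fold changes are differences of mean values on that scale. The added 1 understates changes of low genes, but a single library near 0 can enlarge them. Between Treg PBS and CD4 PBS, Nr4a3 was 4.79 in limma, 2.22 in edgeR and 2.25 in DESeq2. A call is an adjusted p under 0.05. On recovered reads edgeR 4.0.16 (quasi-likelihood) and DESeq2 1.42.0 were alternatives. Between CD4 DTx and CD4 PBS edgeR called 1395 genes and DESeq2 2324, and between CD8 DTx and CD8 PBS 1148 and 2060. The models were also run on simulated reads, drawn with the same dispersion for every gene. That simulation held no shift like that of the PBS libraries numbered 3, so it cannot show how such a shift affects the calls. Replicate numbers were taken to pair groups where the library deviations of all of 3 pairs correlated above 0.1, which held only for CD4 DTx with CD8 DTx (0.207 to 0.590). Pairs of groups with CD4 PBS or CD8 PBS, which have 2 libraries each, could not meet this rule. It therefore does not decide whether their libraries are paired. Between CD4 PBS and CD8 PBS the correlation was 0.189, but deviations of 2 libraries from their mean only mirror each other. Promoter windows came from RefSeq (GRCm38.p6), not the build of the files. Of each list of related genes, up to 4 with the largest change among those that passed were eligible to be named. A named list gene and the gene most like Tox2 are not reported here. The 7 genes and the lists were chosen with earlier results of these data known.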

Additional observations from a re-analysis of the deposited data

How the results depend on the processing

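The 63 differences of the 7 genes were recomputed 1111 times under alternative processing, of which 1010 kept direction and call, 37 lost a call, 25 gained one and 39 changed sign. Most of the 63 had no call to lose, so these totals do not measure how stable the calls were. The call of Nr4a3 between Treg PBS and CD4 PBS was kept under 9 of 17 alternatives. Those of Tox between CD8 DTx and Treg PBS and between CD4 DTx and CD8 DTx were kept under 9 of 18. The remaining calls were kept under 13 of 17 up to all 18. The cause of a change was not tested unless stated. The fall of Tox in CD4 DTx against Treg PBS kept its call throughout, with adjusted p between 9.68e-13 and 0.00969 over limma, edgeR and DESeq2 settings. Groups of 2 libraries and a floor of up to 4.10 normalized reads limit genes with few reads in a library. Fits that left 1 PBS library assumed that it varied like the other groups. Egr3 had no value under a minimum of 50 normalized reads, where it was filtered out.

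Sign changes among settings were of small or uncertain differences. Egr3 between CD8 DTx and Treg PBS was 0.82 with a pseudocount of 0.1, 0.010 with TMM scaling, 0.96 with quantile normalization and 0.54 without the 3 PBS libraries numbered 3. Tox after DTx in CD8 cells was 0.023 with TMM, 0.064 with edgeR and 0.034 with DESeq2. The difference of the DTx effects for Nr4a3 was -1.11 with edgeR and -1.09 with DESeq2. Without the 3 PBS libraries numbered 3, chosen after seeing the data, Egr2 was 0.19 between Treg PBS and CD4 PBS, Nr4a2 was -0.29 and Nfatc1 -0.038 between Treg PBS and CD8 PBS, and Tox was -0.18 between CD4 PBS and CD8 PBS.

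Leaving out each library in turn gave ranges that crossed 0. Between Treg PBS and CD4 PBS these were -0.78 to 0.33 for Egr2 and -1.97 to 0.17 for Egr3. Between Treg PBS and CD8 PBS they were -0.17 to 0.80 for Nr4a2 and -0.69 to 0.11 for Egr2. Egr3 ran from -1.36 to 0.78 between CD8 DTx and Treg PBS. After DTx in CD4 cells Tox2 ran from -0.10 to 2.22 and Nr4a3 from -0.56 to 6.59, and in CD8 cells Tox ran from -0.25 to 0.16 and Egr2 from -0.33 to 0.47. Between CD4 PBS and CD8 PBS the ranges were -0.021 to 0.41 for Tox, -6.38 to 0.77 for Nr4a3, -0.62 to 0.49 for Egr2 and -0.20 to 0.041 for Nfatc1. Between CD4 DTx and CD8 DTx Tox2 ran from -0.93 to 1.40. The difference of the DTx effects ran from -0.94 to 3.21 for Nr4a2 and from -2.06 to 5.09 for Nr4a3.

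The number of the 7 genes that passed, with 1 library left out, was 0 to 2 for Treg PBS against CD4 PBS, 1 to 2 for Treg PBS against CD8 PBS, 1 to 2 after DTx in CD4, 0 to 1 after DTx in CD8, 0 to 1 for CD8 DTx against Treg PBS, 0 to 2 for CD4 PBS against CD8 PBS and 0 to 1 for CD4 DTx against CD8 DTx. Over all genes the corresponding counts were 1189 to 2649, 762 to 2242, 658 to 1433, 202 to 2495, 708 to 963, 57 to 116 and 61 to 226, with 567 to 894 for CD4 DTx against Treg PBS and 0 to 14 for the difference of the DTx effects.

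Other settings moved counts as follows. A minimum of 50 normalized reads gave 1 of the 7 genes between CD4 PBS and CD8 PBS. Quantile normalization gave 2 for CD4 DTx against Treg PBS, 1 between the PBS groups, 0 between the DTx groups and 10 of all genes for the difference of the DTx effects, where a pseudocount of 0.1 gave 19, DESeq2 85 and a fit with no mean trend 12. With edgeR 1 of the 7 passed for Treg PBS against CD4 PBS, 0 for CD8 DTx against Treg PBS and 0 between the DTx groups, where 131 of all genes passed. With DESeq2 2 of the 7 passed after DTx in CD4, 1 between the PBS groups and 2 between the DTx groups, with 326 and 520 of all genes in the last pair and 1543 for CD4 DTx against Treg PBS. A fit of only the groups compared, which has fewer samples, gave 0 for CD8 DTx against Treg PBS and 0 between the DTx groups, and over all genes 983 after DTx in CD4, 239 after DTx in CD8, 640 for CD4 DTx against Treg PBS, 37 between the PBS groups and 70 between the DTx groups. No mean trend gave 1 for Treg PBS against CD4 PBS, 0 for CD8 DTx against Treg PBS and 0 between the DTx groups.

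With the replicate number as a block, 2 of the 7 passed after DTx in CD4 (Tox and Nfatc1, 0.98, limma, adjusted p = 0.00550), 2 after DTx in CD8 (Tox2 and Nfatc1, 0.65, limma, adjusted p = 0.0426) and 1 between the PBS groups (Tox2). For Treg PBS against CD4 PBS it called Tox2 as well (3.14, limma, adjusted p = 0.0221). Over all genes the block gave 2029 after DTx in CD4 (1612 without it) and 1893 after DTx in CD8 (1377). It gave 192 between the PBS groups (137) and 3210 for Treg PBS against CD4 PBS (2581). There were 1739 for CD4 DTx against Treg PBS and 414 between the DTx groups, the only pair of groups that the numbers were taken to pair. For the other pairs of groups the labels do not say that a number marks a single animal or day, although libraries of a number share sex. The paper states that replicates came from independent days, without tying a number to a day. Pairs that include a group of 2 libraries could not meet the rule for pairing. Whether the block is the better fit there was not tested.

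Without the 3 PBS libraries numbered 3, 0 of the 7 passed for Treg PBS against CD8 PBS, 2 after DTx in CD4, 0 after DTx in CD8, 0 for CD8 DTx against Treg PBS and 2 between the PBS groups. Over all genes the counts were 836 for Treg PBS against CD4 PBS, 497 for Treg PBS against CD8 PBS, 573 and 107 after DTx in CD4 and CD8, 472 and 527 for CD4 DTx and CD8 DTx against Treg PBS, 54 and 83 between the PBS and the DTx groups, and 1 for the difference of the DTx effects. With a 4-fold change also required, 1 of the 7 passed for Treg PBS against CD8 PBS, 0 after DTx in CD4, 0 for CD4 DTx and 0 for CD8 DTx against Treg PBS and 0 between the DTx groups, with 1292 and 1192 of all genes for Treg PBS against CD4 PBS and CD8 PBS, 868 and 692 after DTx, 508 and 624 against Treg PBS and 127 between the DTx groups.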
